A study of Homo sapiens and Mus musculus with 8 samples.

Results

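The genes described here encode collagens, laminins, integrins and other proteins of the extracellular matrix. They were taken by symbol: every symbol built as a collagen chain (Col, a number, a, a number), a laminin chain (Lama, Lamb or Lamc with a number) or an integrin (starting Itga or Itgb), and 7 given by name (Hspg2, Nid1, Nid2, Fbln5, Fn1, Sparc and Hapln1). This gave 60 of the 15966 mouse symbols with a usable row and 2 of the 420 human symbols, ITGAV and COL9A2. Of the mouse genes, 51 had a row in the comparison of 2 weeks of UV with control, 54 at 5 weeks of UV and 57 in the Orai1 clone, and 48 had a row in all 3. No gene had a row in all 5 tables. Nid1 and Nid2 had no mouse row and were not analysed here. The pattern for integrins also took 3 symbols of proteins that are not integrin chains, Itgb1bp1, Itgb1bp2 and Itgb3bp, which form a role group of their own and are included in the totals below.

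The study, titled for the suppression of calcium signaling in melanoma progression, compared RNA-seq of melanoma cell lines. The mouse line B16N was wild type and untreated at Day 0 (control), wild type and UV exposed to Week 2 or to Week 5, or Orai1 overexpressing at Day 0. Orai1 is the pore-forming protein of the store-operated calcium channel of the plasma membrane. The human lines WM983 and UACC257 were each wild type and untreated at Day 0, or wild type and UV exposed to Week 2. There were 8 samples in all, 1 in each group, so no difference has a replicate check. The Orai1 overexpressing sample is 1 clone, named O1C44, from cells transfected with Orai1-WT-CFP, held under G418 and sorted by FACS, and the control did not go through these steps. The UV samples were collected weeks later than the control, so UV and time in culture cannot be told apart. The human UV samples are titled UV3, yet labelled Week 2. Orai1 itself has no row in the tables used here, so the overexpression was not checked.

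The matrix outside cells is built of fibrillar collagens such as types I and V, of basement membranes made of collagen IV and laminin networks joined by nidogens and perlecan, and of glycoproteins such as fibronectin. A laminin is made of an alpha, a beta and a gamma chain, and collagen IV and VI molecules are trimers of several chains. Integrins are receptors made of an alpha and a beta chain that bind these proteins and link them to the actin cytoskeleton through an adhesion complex of talin, kindlin, paxillin and focal adhesion kinase. In melanoma they are known for their part in attachment, migration and invasion.

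The deposited files hold comparisons, not levels: a log2 fold change, a test statistic and a p-value per gene. The mouse files have the control on top of the ratio, so the sign was turned here and a positive value means higher in the treated sample or the clone. The standard error (SE) of each value was taken as the log2 change divided by the statistic. The adjusted p is the deposited p after Benjamini-Hochberg adjustment over all usable rows of that table (14648, 14821 and 15041), and a gene is said to have risen or fallen where it is under 0.05. With 1 library a group, such a p compares those libraries, not the conditions, and how many libraries stand behind it is not given in the sources used here. In these bulk samples, fewer cells of a type and less RNA per cell cannot be told apart. Depth is unknown. Of the genes described here, 22 of 51, 21 of 54 and 20 of 57 had an SE of at most 0.5, while 20, 23 and 24 had an SE above 1. A value with an SE above 1 is called a fitted value below and is no measure of size.

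Many rows carry the exact values of another symbol, which bears on several genes below. Of the 60 mouse genes, 34 shared their values with another symbol in at least 1 table and 26 did in none. Among these, 13 had the same partner in all 3 tables, 27.1% of the 48 genes with 3 rows, against 13.8% of all 13935 symbols with 3 rows. The pairs included Fn1 with Ak7, Sparc with Tia1, Itga6 with Tstd2, Itgax with Wbp2, Col8a1 with Tex15, Lama4 with Rps24, Lama5 with Brat1, Itgb6 with Dcaf8, Col11a1 with Stx5a, Col17a1 with Atp4a, Col18a1 with Msr1 and Col4a4 with Casq1. For these pairs both symbols carry the same values, and to which of them a value belongs was not tested. Of the 22 genes that rose or fell in at least 1 comparison, 5 have such a partner (Fn1, Sparc, Itga6, Itgax and Col8a1) and 14 share values in no table. The other 3, Col4a2, Lamb1 and Itga3, share values only in tables where their SE is 2.39 or more, and have values of their own in the clone table, where they rose. In all, 17 genes, these 3 among them, shared at least 1 table's values with 10 or more symbols, up to 744 on a single value, with SE from 3.30 to 4.08.

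**Figure D1:**
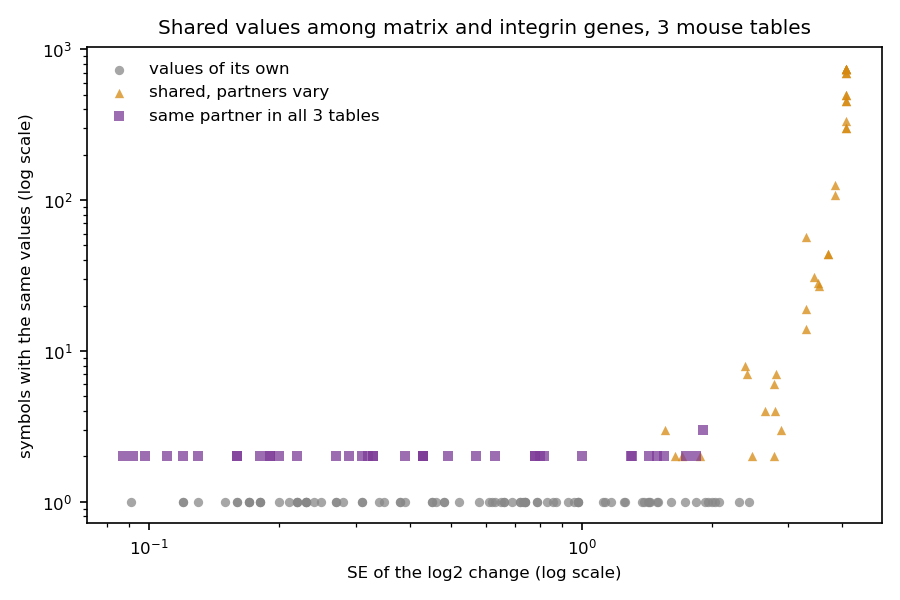
The SE of each log2 change (x axis, log scale) and the number of symbols with the same values (y axis, log scale), 1 point per mouse gene described here and table. Values shared with 10 or more symbols lie at SE from 3.30 to 4.08, while the 13 genes with a fixed partner lie between 0.087 and 1.91.

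After 2 weeks of UV, 7 of 51 genes passed the test, 13.7%, against 7.67% of all rows. The 3 that rose were the collagen V chains Col5a1 and Col5a3 and perlecan (Hspg2), against 3.13% of all rows rising. The 4 that fell were Hapln1, Lamc1, Fn1 and Itgax, against 4.55% of all rows falling. After 5 weeks, 6 of 54 passed, 11.1%, against 4.78% of all rows: Col4a1 and Fbln5 rose, and Hapln1, Fn1, Itgb5 and Itgb3bp fell (3.07% and 1.71% of all rows). In the Orai1 clone, 18 of 57 passed, 31.6%, against 22.0% of all rows. There Col4a1, Col4a2, Col8a1, Lamb1 and Itga3 rose, and 13 genes fell: Fn1, Hapln1, Sparc, Col5a1, Col5a3, Col6a1, Col12a1, Col16a1, Itga6, Itga8, Itgb1, Itgb5 and Itgb3bp (10.3% and 11.6% of all rows). The median log2 change over the genes with a row in the authors' deposited tables was 0.15, 0.079 and -0.047, beside 0.028, 0.025 and 0.072 over all rows. Fn1 and Hapln1 fell in all 3 comparisons, 5 genes passed in 2, 15 in 1 and 38 in none. The matching shares over all symbols were not counted, so nothing is read from the size of this overlap. Col5a1 and Col5a3 passed in opposite directions, higher after 2 weeks of UV and lower in the clone. With the stricter Benjamini-Yekutieli adjustment 3, 3 and 14 genes passed, 5.88%, 5.56% and 24.6%, against 4.27%, 2.37% and 14.1% of all rows. Fn1, Hapln1, Hspg2 and Itgax at 2 weeks, Col4a1, Hapln1 and Itgb3bp at 5 weeks, and Col5a1, Col16a1, Itga6 and Itga8 in the clone then missed the threshold. The 3 comparisons use the same control sample, so a value that is off in that sample moves all of them.

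**Figure D2:**
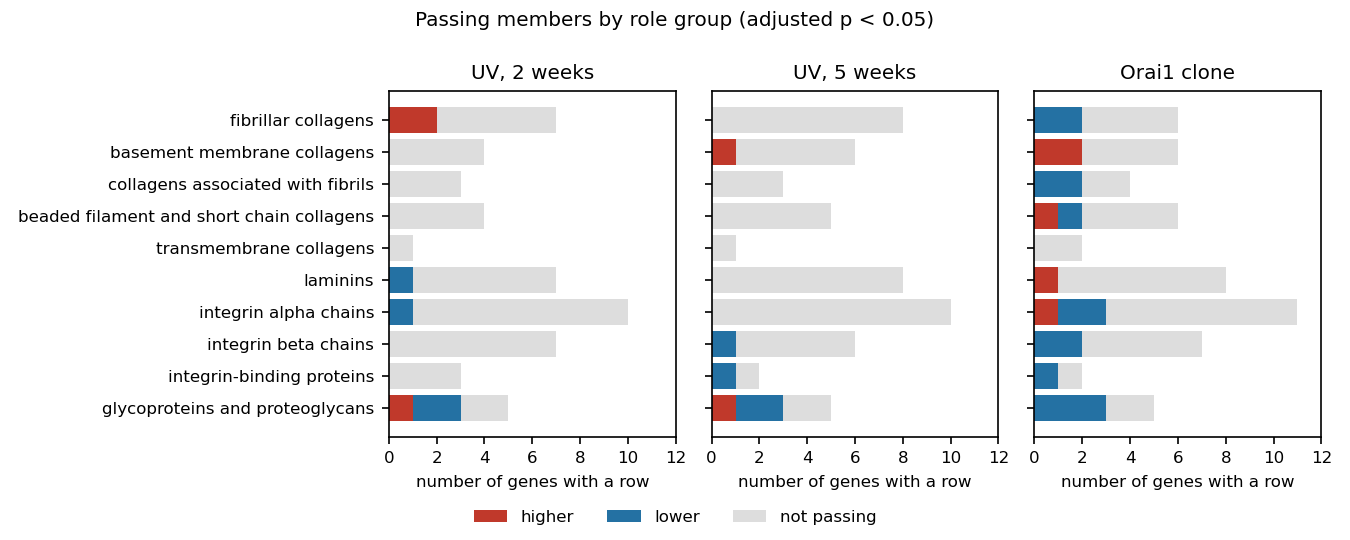
Numbers of genes that rose, fell or did not pass in each role group, for 2 weeks of UV, 5 weeks of UV and the Orai1 clone against control in B16N. In the clone 13 genes fell and 5 rose (11.6% and 10.3% of all rows). The 13 include Itgb3bp, which is no integrin chain. It is drawn in the row labelled integrin-binding proteins, which holds the symbols taken only by the letters of their names.

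Among the glycoproteins and proteoglycans, fibronectin (Fn1), which assembles into fibrils that integrins bind, fell in each comparison. In the authors' deposited tables its log2 change was -0.36 (adjusted p 0.0209, SE 0.11) after 2 weeks of UV. After 5 weeks it was -1.02 in the authors' deposited table (adjusted p 2.03e-06, SE 0.18). In the clone the authors' deposited table gives -3.19 (adjusted p 7.2e-89, SE 0.16), a 9.11-fold lower value. The 3 samples differed from each other: the differences computed from the authors' deposited tables were -0.66 (adjusted p 0.0493, SE 0.21) between the UV samples, -2.83 (adjusted p 2.19e-46, SE 0.19) between the clone and 2 weeks, and -2.17 (adjusted p 3.84e-17, SE 0.24) between the clone and 5 weeks. These differences were tested with a normal test, with both SE added in squares and p adjusted over all genes in both tables. The value of the common control cancels in them. Its spread is counted in both SE, so the test errs to fewer calls. Ak7 has the same values as Fn1 in all 3 tables.

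Hapln1, the link protein that fastens proteoglycans to hyaluronan, fell in each comparison. Its log2 change in the authors' deposited tables was -3.29 after 2 weeks of UV (adjusted p 0.00855, SE 0.93), -3.16 after 5 weeks (adjusted p 0.032, SE 0.98) and -2.99 in the clone (adjusted p 0.00134, SE 0.79). Among passing rows with SE at most 1, this was the largest fall at both UV times, of 666 and 253 falling rows, and the fall at place 39 of 1711 in the clone. The differences between the samples, from the authors' deposited tables, were 0.14, 0.30 and 0.16, with 95% intervals of -2.52 to 2.79, -2.10 to 2.70 and -2.31 to 2.64. The intervals leave room for differences of more than 4-fold either way.

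Sparc, a secreted protein that binds collagen and shapes its deposition, fell in the clone and passed at neither UV time. The authors' deposited tables give log2 changes of 0.16 (adjusted p 0.402, SE 0.092) and -0.48 (adjusted p 0.185, SE 0.20) after 2 and 5 weeks of UV, and -1.65 (adjusted p 1.07e-39, SE 0.12) in the clone. The clone was lower than both UV samples, by differences of -1.81 (adjusted p 4.99e-30, SE 0.15) and -1.17 (adjusted p 3.36e-05, SE 0.23) computed from the authors' deposited tables. Tia1 carries the same values.

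Fibulin-5 (Fbln5), which takes part in elastic fibre assembly, rose after 5 weeks of UV. The log2 change in the authors' deposited table was 1.20 (adjusted p 5.01e-06, SE 0.22), a 2.29-fold higher value. After 2 weeks it was -0.039 (adjusted p 0.959, SE 0.16) and in the clone 0.13 (adjusted p 0.739, SE 0.16), both from the authors' deposited tables. The 5-week value was above that at 2 weeks by 1.23 (adjusted p 0.000699, SE 0.27), and the clone lay below it with a difference of -1.07 (adjusted p 0.00297, SE 0.27), from the authors' deposited tables.

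Perlecan (Hspg2), the large heparan sulfate proteoglycan of basement membranes, rose after 2 weeks of UV. Its log2 change in the authors' deposited table was 1.60 (adjusted p 0.0317, SE 0.52), the fifth largest of 456 passing rises with SE at most 1. After 5 weeks it was -0.19 (adjusted p 0.965, SE 0.83) and in the clone -0.012 (adjusted p 0.994, SE 0.66), from the authors' deposited tables. The SE of these values are wide, and no difference between samples passed for Hspg2.

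**Figure D3:**
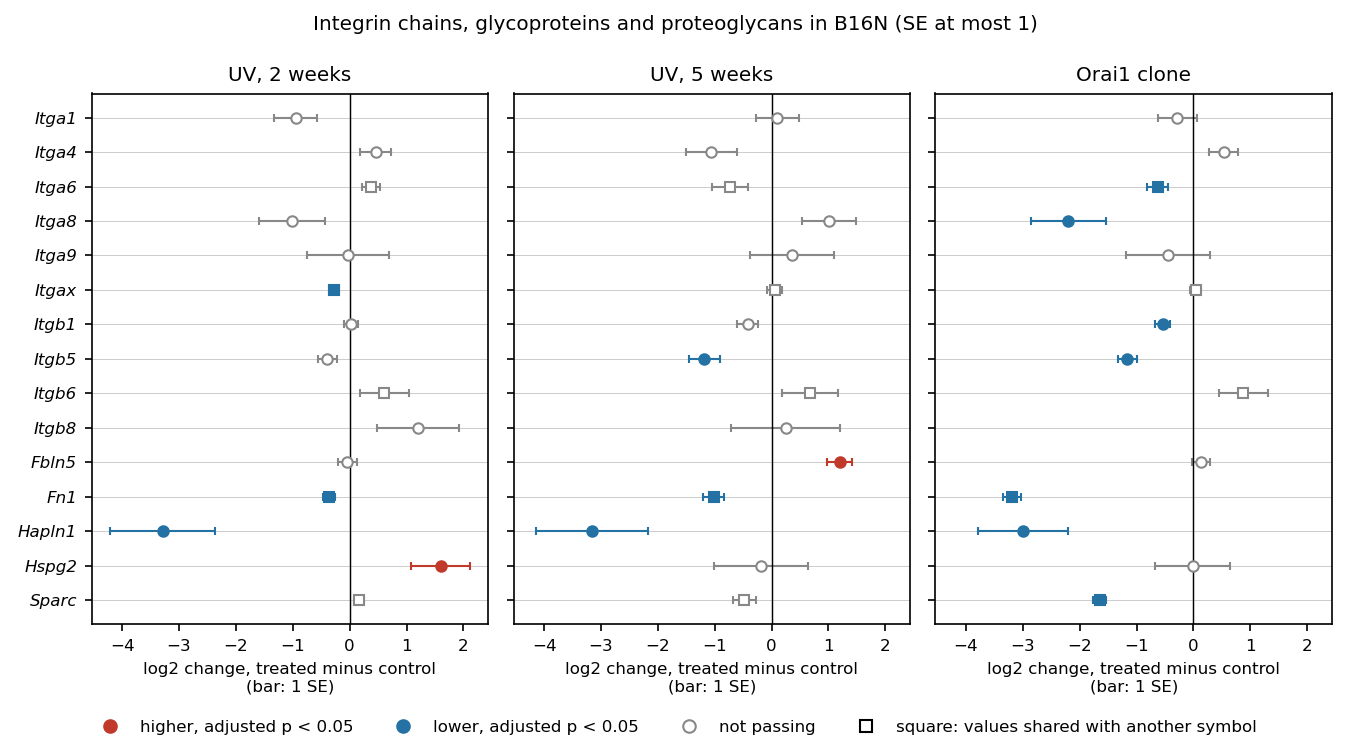
Log2 change against control (points) with 1 SE either way (bars) for integrins and for matrix glycoproteins and proteoglycans in B16N after 2 and 5 weeks of UV and in the Orai1 clone, from the authors' deposited tables; values with an SE above 1 are not drawn, and squares are values shared with another symbol. Hapln1 lies at -3.29, -3.16 and -2.99, and Fn1 at -0.36, -1.02 and -3.19.

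Among the fibrillar collagens, 2 of 7 genes with a row rose after 2 weeks of UV, against 3.13% of all rows. None of 8 passed after 5 weeks, against 4.78% of all rows. In the clone 2 of 6 fell, Col5a1 and Col5a3, against 11.6% of all rows. Both encode chains of collagen V, a minor fibrillar collagen that helps to start collagen I fibrils. For Col5a1 the authors' deposited tables give log2 changes of 0.86 (adjusted p 0.00448, SE 0.23) after 2 weeks, -0.54 (adjusted p 0.681, SE 0.39) after 5 weeks and -1.04 (adjusted p 0.00534, SE 0.31) in the clone. For Col5a3 they are 0.92 (adjusted p 5.76e-06, SE 0.17), 0.16 (adjusted p 0.965, SE 0.23) and -1.35 (adjusted p 1.38e-07, SE 0.23) in the authors' deposited tables. Both chains share their values with no other symbol. The clone was lower than the 2-week sample for both, with differences of -1.90 (adjusted p 2.67e-05, SE 0.39) for Col5a1 and -2.27 (adjusted p 4.23e-13, SE 0.29) for Col5a3 from the authors' deposited tables. Col5a3 was also lower in the clone than at 5 weeks, by a difference of -1.51 (adjusted p 0.000266, SE 0.33) from the authors' deposited tables. The fall of Col5a1 from 2 to 5 weeks, -1.40 from the authors' deposited tables (adjusted p 0.0526, SE 0.45), missed the threshold. The third collagen V chain, Col5a2, had a row at 5 weeks alone, with an SE of 3.30. Col1a1, a chain of the main fibrillar collagen, had rows in both UV tables with SE of 4.08 and 3.71, and Col11a1, Col11a2, Col27a1 and Col2a1 passed in no comparison.

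Among the basement membrane collagens, Col4a1 and Col4a2 encode the chains of the most common collagen IV network, and lie beside each other in the genome. In the authors' deposited tables, Col4a1 had a log2 change of 0.38 after 2 weeks of UV (adjusted p 0.959, SE 1.17). After 5 weeks it rose, with a fitted value of 5.11 in the authors' deposited table (adjusted p 0.0086, SE 1.39). The fitted difference of 4.73 between 5 and 2 weeks, from the authors' deposited tables, missed the threshold (adjusted p 0.158, SE 1.82). In the clone the authors' deposited table gives 7.47 (adjusted p 2.23e-32, SE 0.61), the third largest of 1448 passing rises with SE at most 1. The clone was above the 2-week sample by a fitted difference of 7.09 (adjusted p 3.13e-06, SE 1.32), while its difference from the 5-week sample, 2.36 from the authors' deposited tables, had an SE of 1.52 and an adjusted p of 0.66. Col4a2 has no row at 2 weeks, for a reason not given in the sources used here, and an SE of 4.08 at 5 weeks. In the clone it rose (adjusted p 0.00203), and its fitted value of 5.19 in the authors' deposited table (SE 1.42) is no bound. The other collagen IV chains did not pass: in the clone the authors' deposited table gives 0.95 for Col4a4 (SE 0.63), -0.46 for Col4a5 (adjusted p 0.192, SE 0.24) and a fitted 1.54 for Col4a6 (SE 3.44). Col18a1, which holds the endostatin fragment, had SE of 1.31 to 1.49 and passed nowhere.

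Of the collagens that attach to the surface of fibrils, Col12a1 and Col16a1 fell in the clone. The authors' deposited tables give log2 changes for Col12a1 of -0.098 (adjusted p 0.961, SE 0.46) after 2 weeks of UV, -1.84 (adjusted p 0.118, SE 0.69) after 5 weeks and -3.56 (adjusted p 2.44e-05, SE 0.74) in the clone. The clone was lower than the 2-week sample by -3.46 (adjusted p 0.00143, SE 0.87), from the authors' deposited tables. For Col16a1 the authors' deposited tables give 0.15 (SE 0.48), -0.57 (SE 0.62) and, in the clone, -2.00 (adjusted p 0.0135, SE 0.65). Col19a1 and Col22a1, the other members of this group, had SE above 1 and did not pass.

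Of the beaded filament and short chain collagens, Col6a1 fell and Col8a1 rose in the clone. Col6a1 encodes a chain of the microfibril collagen VI. Its log2 changes in the authors' deposited tables were -1.12 (adjusted p 0.546, SE 0.73), -1.44 (adjusted p 0.519, SE 0.86) and -3.34 (adjusted p 0.00448, SE 0.98) after 2 weeks, 5 weeks and in the clone, negative in all 3. Its partner chain Col6a3 and the related Col6a6 had rows with an SE of 3.71 or more, and no row in the 2-week table. Col8a1, a short chain collagen of network-forming type, had fitted values of -1.56 (SE 1.30) and 2.89 (SE 1.74) under UV and a log2 change of 3.04 (adjusted p 1.69e-06, SE 0.57) in the clone, from the authors' deposited tables. The clone exceeded the 2-week sample by a fitted 4.60 (adjusted p 0.0141, SE 1.42). Tex15 has the same values as Col8a1. Col10a1, Col28a1 and the transmembrane collagens Col17a1 and Col25a1 passed in no comparison.

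**Figure D4:**
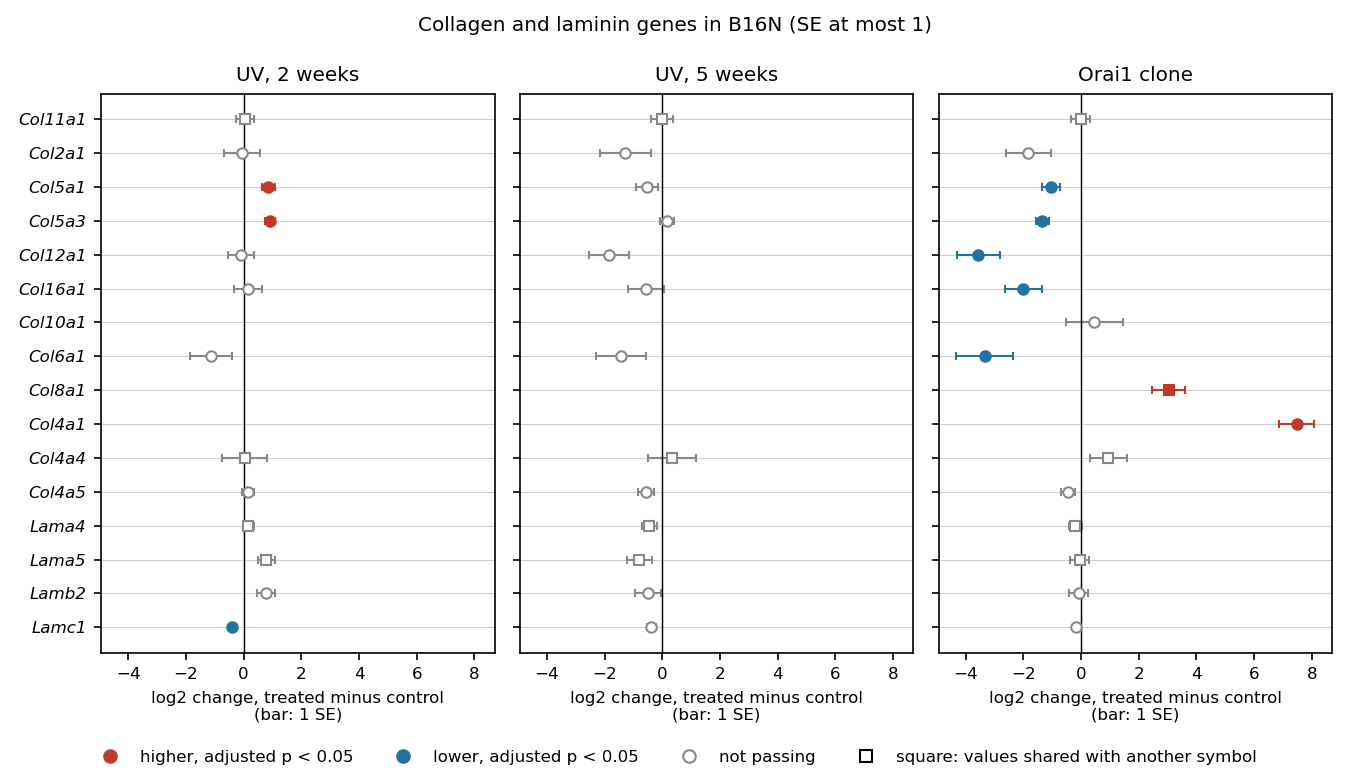
Log2 change against control (points) with 1 SE either way (bars) for collagens and laminins in B16N after 2 and 5 weeks of UV and in the Orai1 clone, from the authors' deposited tables; values with an SE above 1 are not drawn, and squares are values shared with another symbol. Col4a1 is at 7.47 in the clone, and Col5a1 and Col5a3 lie above 0 at 2 weeks and below 0 in the clone.

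Of 7 laminin chains with a row, 1 fell after 2 weeks of UV, against 4.55% of all rows. It was Lamc1, the gamma chain that most laminins contain. Its log2 changes in the authors' deposited tables were -0.42 (adjusted p 0.000153, SE 0.091), -0.38 (adjusted p 0.146, SE 0.15) and -0.16 (adjusted p 0.42, SE 0.12) after 2 weeks, 5 weeks and in the clone. For its partner alpha and beta chains at 2 weeks, the authors' deposited table gives 0.16 for Lama4 (SE 0.19), 0.79 for Lama5 (adjusted p 0.0744, SE 0.29) and 0.78 for Lamb2 (adjusted p 0.115, SE 0.31). None of these passed. At 5 weeks the authors' deposited table gives -0.80 for Lama5 (adjusted p 0.431, SE 0.43), -0.50 for Lamb2 (SE 0.45) and -0.45 for Lama4 (SE 0.27). The difference of -1.58 for Lama5 between the UV samples, from the authors' deposited tables, missed the threshold (adjusted p 0.0606, SE 0.52). In the clone, Lamb1, a beta chain of the widespread laminins, rose (adjusted p 0.0023). It has no row at 2 weeks, and its fitted value of 5.21 in the authors' deposited table (SE 1.44) is no bound, as for Col4a2. Lama4, Lama5 and Lamb2 were near 0 in the clone, at -0.20 (SE 0.22), -0.047 (SE 0.33) and -0.086 (SE 0.34) in the authors' deposited table. Lama2 and Lamb3 had SE of 3.85 or more.

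No integrin chain rose or fell at both UV times. As only 1 chain passed at each time and the matching share over all symbols was not counted, nothing is read from this. At 2 weeks 1 of 10 alpha chains and 0 of 7 beta chains passed, against 7.67% of all rows. Itgax, the alpha chain of a leukocyte integrin, was the 1 integrin chain that passed: the log2 change in the authors' deposited table was -0.28 (adjusted p 0.0193, SE 0.087). That row is also the row of Wbp2, and Itgax was at 0.054 (SE 0.13) and 0.044 (SE 0.098) at 5 weeks and in the clone in the authors' deposited tables. At 5 weeks 0 of 10 alpha chains and 1 of 6 beta chains passed, against 4.78% of all rows. Itgb5, the beta chain that pairs with the alpha V chain to bind vitronectin, fell there. The authors' deposited tables give log2 changes for Itgb5 of -0.39 (adjusted p 0.181, SE 0.17) after 2 weeks, -1.18 (adjusted p 0.000718, SE 0.27) after 5 weeks and -1.16 (adjusted p 9.44e-10, SE 0.17) in the clone. The clone was lower than the 2-week sample by -0.77 (adjusted p 0.0194, SE 0.24), from the authors' deposited tables. Its alpha partner Itgav had no mouse row.

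In the clone 5 integrin chains passed: Itga3 rose, and Itga6, Itga8, Itgb1 and Itgb5 fell. These were 3 of 11 alpha chains (27.3%) and 2 of 7 beta chains (28.6%), not far from the 22.0% of all rows. Itgb1 is the beta chain shared by most matrix-binding integrins. Its log2 changes in the authors' deposited tables were 0.027 (adjusted p 0.959, SE 0.12), -0.42 (adjusted p 0.205, SE 0.18) and -0.54 (adjusted p 0.000612, SE 0.13) after 2 weeks, 5 weeks and in the clone. The clone was lower than the 2-week sample by -0.56 (adjusted p 0.0204, SE 0.18), from the authors' deposited tables. Itga6, an alpha chain of laminin receptors, was at 0.38 (adjusted p 0.149, SE 0.16), -0.73 (adjusted p 0.216, SE 0.31) and -0.63 (adjusted p 0.00671, SE 0.19) in the authors' deposited tables. Neither UV value passed, while the 5-week sample was below the 2-week sample by -1.11 (adjusted p 0.0472, SE 0.35) and the clone was below it by -1.02 (adjusted p 0.000999, SE 0.25), from the authors' deposited tables. Tstd2 shares the values of Itga6.

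Itga3, another alpha chain of laminin receptors that pairs with Itgb1, rose in the clone (adjusted p 3.72e-07). Its fitted value of 7.07 in the authors' deposited table has an SE of 1.25, and the UV rows have SE of 3.52 and 2.39. Itga8, the alpha chain of a receptor for nephronectin and fibronectin, had log2 changes of -1.02 (adjusted p 0.429, SE 0.58), 1.01 (adjusted p 0.306, SE 0.48) and -2.20 (adjusted p 0.00584, SE 0.66) in the authors' deposited tables. The clone was lower than the 5-week sample for Itga8, with a difference of -3.22 (adjusted p 0.00308, SE 0.82) from the authors' deposited tables. Itga4, an alpha chain that binds fibronectin and VCAM-1, passed in no comparison with control, at 0.46 (SE 0.27), -1.06 (SE 0.45) and 0.53 (SE 0.25) in the authors' deposited tables. The clone was above the 5-week sample for Itga4 by 1.59 (adjusted p 0.0387, SE 0.51), from the authors' deposited tables. Of the other integrin chains, the alpha chains Itga1, Itga2, Itga2b, Itga7, Itga9 and Itga10 and the beta chains Itgb2, Itgb3, Itgb6, Itgb7 and Itgb8 did not pass in any comparison. Itgb3bp, a centromere protein whose name recalls an early link to an integrin tail, fell at 5 weeks and in the clone: the authors' deposited tables give -0.42 (adjusted p 0.157, SE 0.18), -0.78 (adjusted p 0.0172, SE 0.23) and -1.63 (adjusted p 3.49e-13, SE 0.21). The clone was below the 2-week sample by -1.20 (adjusted p 0.000305, SE 0.27) for Itgb3bp, from the authors' deposited tables. Itgb1bp1 and Itgb1bp2 did not pass.

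Over all genes here, the treated samples differed from each other as follows. Between 5 and 2 weeks of UV, 3 of 49 genes passed the test of the difference, against 3.33% of all genes in both tables: Fbln5 was higher (2.05% of all genes) and Fn1 and Itga6 were lower (1.28%). Between the clone and 2 weeks, 11 of 49 passed, 22.4%, against 11.7% of all genes, with Col4a1 and Col8a1 higher (4.81% of all genes) and 9 genes lower (6.86%). Between the clone and 5 weeks, 6 of 52 passed, 11.5%, against 5.35%, with Itga4 higher (1.27% of all genes) and Col5a3, Fbln5, Fn1, Itga8 and Sparc lower (4.08%).

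Other genes of the matrix and of adhesion were read from 4 lists, whose counts stand against 7.67% of all rows passing at 2 weeks (3.13% higher, 4.55% lower), 4.78% at 5 weeks (3.07% higher, 1.71% lower) and 22.0% in the clone (10.3% higher, 11.6% lower). Median log2 changes over all rows of the authors' deposited tables were 0.028, 0.025 and 0.072 in that order. Of the collagen processing and cross-linking list of 26 genes, 17, 18 and 18 had a row, with medians of 0.22, -0.064 and 0.0046 in the authors' deposited tables. At 2 weeks P3h3, a prolyl 3-hydroxylase family member, rose, with a log2 change of 0.45 in the authors' deposited table (adjusted p 0.00703, SE 0.13), and none fell. At 5 weeks 2 rose and 1 fell: Plod1, a lysyl hydroxylase, at 0.93 (adjusted p 0.000442, SE 0.21), Mia3, which loads collagen for export, at 0.59 (adjusted p 0.00769, SE 0.16), and Bmp1, which cleaves procollagen, at -0.74 (adjusted p 0.0311, SE 0.23) in the authors' deposited table. The clone had 4 that rose and 3 that fell, of 18, against 22.0% of all rows. The largest rises were Mia3 at 0.82 (adjusted p 4.56e-10, SE 0.12) and P3h3 and Plod1 at 0.72 each (SE 0.13 for both), and the largest falls were the lysyl oxidase relative Loxl4 at -3.03 (adjusted p 4.76e-11, SE 0.43) and the prolyl 3-hydroxylase P3h2 at -2.19 (adjusted p 2.53e-09, SE 0.34), in the authors' deposited table. The row of Plod1 is shared with 1 other symbol.

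Of the 24 genes of the adhesion complex list, which join integrins to actin and to kinases, 22 had a row in each table, with medians of -0.045, -0.17 and 0.049 in the authors' deposited tables. At 2 weeks none rose and 2 fell, tensin-3 (Tns3) at -0.56 (adjusted p 2.45e-07, SE 0.092) and kindlin-2 (Fermt2) at -0.29 (adjusted p 0.00882, SE 0.083) in the authors' deposited table. At 5 weeks 1 rose and 2 fell, Lims1 at 0.49 (adjusted p 0.0249, SE 0.15), alpha-actinin (Actn1) at -0.67 (adjusted p 0.0184, SE 0.20) and Bcar1 at -0.51 (adjusted p 0.0268, SE 0.15) in the authors' deposited table. The clone had 6 that rose and 3 that fell, of 22, against 22.0% of all rows. The kinase Ptk2b was highest at 1.37 (adjusted p 7.23e-06, SE 0.27), with vinculin (Vcl) at 0.99 (adjusted p 0.048, SE 0.39), while zyxin (Zyx) was at -0.74 (adjusted p 0.00239, SE 0.20) and Bcar1 at -0.56 (adjusted p 4.17e-05, SE 0.12) in the authors' deposited table. Tns3 rose in the clone, at 0.55 (adjusted p 8.12e-05, SE 0.12) in the authors' deposited table, having fallen after 2 weeks of UV. The rows of Ptk2b and Lims1 are each shared with 1 other symbol.

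All 13 genes of the list of other matrix receptors had a row in each table, with medians of -0.032, 0.067 and 0.13 in the authors' deposited tables. At 2 weeks 3 fell and none rose: dystroglycan (Dag1), a laminin receptor, at -0.34 (adjusted p 0.00218, SE 0.087), syndecan-4 (Sdc4) at -0.32 (adjusted p 0.0042, SE 0.086) in the authors' deposited table, and Cd44. At 5 weeks the collagen receptor Ddr2 rose, at 0.58 (adjusted p 0.0027, SE 0.14), and Dag1 and Sdc4 fell, at -0.64 (adjusted p 0.0194, SE 0.19) and -0.47 (adjusted p 0.0163, SE 0.13) in the authors' deposited table. The clone had 2 that rose and 3 that fell, of 13, against 22.0% of all rows. Syndecan-2 (Sdc2) was at 2.59 (adjusted p 2.46e-74, SE 0.14) and the laminin receptor Bcam at 1.42 (adjusted p 1.36e-05, SE 0.29), while Sdc4 was at -0.59 (adjusted p 9.67e-08, SE 0.10), the hyaluronan receptor Cd44 at -0.57 (adjusted p 6.45e-08, SE 0.096) and Dag1 lower too, in the authors' deposited table. Dag1 and Sdc4 fell in all 3 comparisons, which have the control in common. The matching share over all symbols was not counted, so nothing is read from this overlap. The row of Ddr2 is shared with 1 other symbol.

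Of 38 other matrix glycoproteins and proteoglycans, 24, 22 and 24 had a row, with medians of 0.22, 0.49 and 0.34 in the authors' deposited tables. At 2 weeks von Willebrand factor (Vwf) rose, at 0.96 (adjusted p 1.05e-08, SE 0.15) in the authors' deposited table, with its row shared with 1 other symbol, and none fell. At 5 weeks 3 rose and 1 fell: Sparcl1, a relative of Sparc, at 1.42 (adjusted p 8.37e-07, SE 0.24), the matricellular Ccn1 at 0.79 (adjusted p 5.93e-07, SE 0.13) and agrin (Agrn) at -0.43 (adjusted p 0.0436, SE 0.14) in the authors' deposited table, and Tgfbi. In the clone 8 rose and 4 fell, of 24, against 22.0% of all rows. Thrombospondin-2 (Thbs2) rose there, with a fitted 3.03 that gives no size (adjusted p 0.0285, SE 1.09), as did Ccn1 at 2.22 (adjusted p 1.81e-105, SE 0.10), and the largest falls were periostin (Postn) at -2.85 (adjusted p 0.00589, SE 0.86) and Vwf at -2.09 (adjusted p 4.9e-26, SE 0.19), in the authors' deposited table. Sparcl1 fell in the clone, at -1.61 (adjusted p 1.36e-05, SE 0.33) in the authors' deposited table, having risen after 5 weeks of UV.

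Markers of other cell types were read beside these genes, since fibroblasts and endothelium are rich sources of matrix. All 7 pigment cell markers (such as Tyr, Dct and Pmel) had a row in each table, and 4 rose at 2 weeks (3.13% of all rows rose), 5 rose and 1 fell at 5 weeks (3.07% and 1.71%), and 2 rose and 1 fell in the clone (10.3% and 11.6%). Of 9 fibroblast markers 2, 2 and 1 had a row, of 5 endothelial markers 1, 2 and 1, and of 3 keratinocyte markers 1, 1 and 0, and none of these passed. The fibroblast marker Col1a1, with a row at both UV times, is also among the genes described above. Of 5 immune markers 3, 2 and 3 had a row, and Lyz2 rose at 5 weeks and in the clone, at 3.47 (adjusted p 6.84e-05, SE 0.70) and 2.78 (adjusted p 0.000177, SE 0.64) in the authors' deposited tables. The part of any of these in the values above was not tested.

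In the human lines the files hold the same 420 symbols for both, of which 99.5% in WM983 and 10.0% in UACC257 had a deposited p under 0.05. Which sample stands on top of the ratio is not known for these tables, so values are given as deposited, and no direction is drawn. ITGAV, the alpha V chain that pairs with several beta chains to bind vitronectin and fibronectin, had a log2 value of 1.35 in WM983 (deposited p 5e-05) and 0.011 in UACC257 (deposited p 0.937) in the authors' deposited tables. COL9A2, a chain of the fibril-associated collagen IX of cartilage, had -1.41 in WM983 (deposited p 5e-05) and -0.40 in UACC257 (deposited p 0.146) in the authors' deposited tables. In WM983, 351 of 420 rows carried the p of 5e-05, the smallest in that table, so it does not rank these genes. Within WM983 the signs of the 2 genes were opposite. The difference between the lines was not tested. How the 420 symbols were chosen is not given in the sources used here, and nearly all had a p under 0.05 in WM983. A contrast between the lines is therefore no result about these 2 genes. Neither gene has a mouse row, so the lines cannot be compared with B16N for them.

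**Figure D5:**
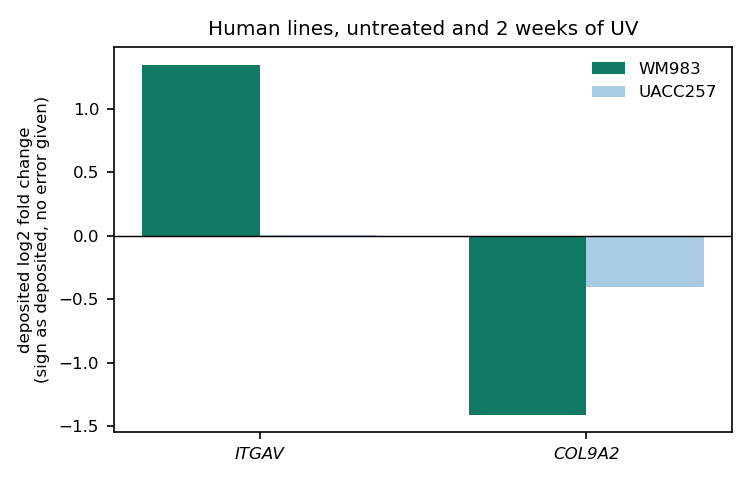
Log2 values of ITGAV and COL9A2 as deposited for WM983 and UACC257, untreated against 2 weeks of UV, with the sign as deposited and no error given in the files. In WM983 ITGAV is at 1.35 and COL9A2 at -1.41, and in UACC257 they are at 0.011 and -0.40.

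The 250 bases before the start of these 2 genes are shown because they are the genes here with values in human cells, from RefSeq on GRCh38.p14, each 5′ to 3′ on the gene's strand, with capitals marking GGGCGG on either strand (the GC box bound by SP factors). The COL9A2 promoter lies at chr1:40317287-40317536 on the minus strand, and that of the first start of ITGAV at chr2:186589806-186590055 on the plus strand.
COL9A2: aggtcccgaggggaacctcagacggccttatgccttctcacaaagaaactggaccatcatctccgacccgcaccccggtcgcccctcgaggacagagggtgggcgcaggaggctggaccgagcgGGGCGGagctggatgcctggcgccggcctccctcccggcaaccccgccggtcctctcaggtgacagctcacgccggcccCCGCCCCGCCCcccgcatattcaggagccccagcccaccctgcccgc
ITGAV: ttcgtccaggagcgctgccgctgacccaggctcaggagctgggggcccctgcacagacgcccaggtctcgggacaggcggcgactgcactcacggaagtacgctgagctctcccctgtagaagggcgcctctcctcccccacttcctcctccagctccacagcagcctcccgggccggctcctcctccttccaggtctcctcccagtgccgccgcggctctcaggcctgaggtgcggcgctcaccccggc
COL9A2 held 3 matches of GGGCGG, some of them overlapping, and ITGAV none. Of 35116 RefSeq promoter windows of this length, 42.6% held GGGCGG. The AP-1 motif TGANTCA and the E-box CATGTG bound by MITF were in neither window, and 6.57% and 9.42% of all windows held them. A match here is a description of letters only.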

How the data were processed

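RNA-seq of 8 melanoma cell line samples, 1 in each group, was compared by the authors in 5 tables. Per the file headers, the authors deposited for each gene a p-value, a log2 fold change and the statistic of their test, treated as a score. The submitters' processing notes name GRCm38, and aligner, caller and human build are not given in the sources used here. Levels, counts and depth are not analysed here, so precision rests on the SE. The mouse sign was turned because all 1357 genes listed in only 1 mouse table (the pattern of a gene without control reads) were deposited as negative. Rows without a usable value, and tests on levels, were left out. Adjusted p-values, differences and counts were computed with Python 3.11.15, numpy 2.4.6, pandas 2.3.3 and scipy 1.17.1, drawn with matplotlib 3.10.9 and tested on simulated data. Genes named are all that passed a comparison or difference, the 7 given by name, partner chains of passing collagen IV and VI, laminin and integrin chains, the human genes and, per list and comparison, the 2 largest passing rises and falls, with others named by count. The genes and lists were chosen with earlier results of these data known. Alternatives were fold minimums, a stricter threshold, an SE limit of 0.5, leaving out shared values, centring on rows with SE at most 0.3 and Benjamini-Yekutieli adjustment. The values of 1 gene of the set are not reported here, while the counts include it.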

Additional observations from a re-analysis of the deposited data

Results flagged for a closer look

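For 3 genes the change against control differed between the 2 UV times in B16N by a test of the difference itself (normal test, Benjamini-Hochberg adjusted over all genes in both of the authors' deposited tables). Fbln5 was higher at 5 weeks than at 2 weeks by 1.23 on the log2 scale (SE 0.27, adjusted p 0.000699). Fn1 was lower at 5 weeks, with a difference of -0.66 (SE 0.21, adjusted p 0.0493), as was Itga6, with a difference of -1.11 (SE 0.35, adjusted p 0.0472). Each UV time is 1 sample, and Fn1 and Itga6 share their rows with Ak7 and Tstd2.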

How the results depend on the processing

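No paired analysis was possible because each group holds 1 sample, and for the same reason no replicate could be left out. No result changed direction under the alternatives run. Of the 7 genes called after 2 weeks of UV, 4 were left with a fold minimum of 1.5, 2 with a fold minimum of 2, 4 at an adjusted p under 0.01 and 3 with Benjamini-Yekutieli adjustment. In that order these were 7.84%, 3.92%, 7.84% and 5.88% of the 51 genes, against 1.84%, 0.348%, 5.02% and 4.27% of all rows. Of the 6 called after 5 weeks, Benjamini-Yekutieli adjustment left 3, 5.56% of 54 genes, against 2.37% of all rows. In the clone 8 genes passed in place of 18 among rows with SE at most 0.5, 0 higher and 8 lower, since the 5 that rose had SE above 0.5. These 8 were 40.0% of the 20 genes with such an SE, near the 35.9% of all rows with such an SE. For 5 against 2 weeks of UV, 1 gene passed in place of 3 at an adjusted p under 0.01 and 1 with Benjamini-Yekutieli adjustment, and 6 passed with SE at most 0.5, where fewer genes are tested. These were 2.04%, 2.04% and 30.0% of the genes described here, against 1.82%, 1.37% and 6.44% of all genes under the same setting. For the clone against 2 weeks, 7 in place of 11 passed without shared values, 25.9% of 27 genes, against 13.2% of all genes. The other counts stayed within 1.5 times the main count. Benjamini-Yekutieli adjustment ended 17 calls of single genes, among them Hapln1 at 2 weeks (adjusted p 0.087) and at 5 weeks (adjusted p 0.326), Fn1 at 2 weeks (adjusted p 0.212), Hspg2 at 2 weeks (adjusted p 0.322) and Col4a1 at 5 weeks (adjusted p 0.0875). Centring and leaving out shared values each added 1 call, that of Col5a1 between the UV times (adjusted p 0.0497 and 0.0487). Beyond the stricter rule or smaller set of genes that each alternative brings, the cause was not tested.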

Other observations

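Nephronectin (Npnt), a basement membrane ligand of the integrin that holds the Itga8 chain, was picked out after its values were seen. In the clone its log2 change in the authors' deposited table was 2.19 (SE 0.24, adjusted p 4.38e-18), where Itga8 fell with -2.20 (SE 0.66, adjusted p 0.00584). Syndecan-2 (Sdc2) was higher in the clone than after 2 weeks of UV by 2.97 (SE 0.25, adjusted p 5.76e-30) and than after 5 weeks by 2.17 (SE 0.28, adjusted p 3.96e-12), from the authors' deposited tables.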
